A study of Mus musculus with 6 samples.

Results

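The genes described here encode the proteins of the cytosolic ribosome and of the mitochondrial ribosome, together with the few genes that share their naming pattern. Members were the protein-coding mouse genes whose symbols begin with Rps, Rpl, Mrps or Mrpl followed by a digit, plus Rpsa, Rplp0, Rplp1 and Rplp2, and the Rps6k kinase genes were left out. This name rule gave 170 of the 25700 counted genes, with 92 for the cytosolic ribosome and 78 for the mitochondrial ribosome. By symbol there were 35 genes of the small cytosolic (40S), 57 of the large cytosolic (60S), 29 of the small mitochondrial (28S) and 49 of the large mitochondrial (39S) subunit. The subunit was read from the symbol alone. Whether each product sits in that subunit, or in a ribosome at all, was not checked, and this holds for all subunit counts below. Genes taken in by name alone include Rps19bp1, an RPS19-binding nucleolar protein that is no ribosomal subunit, and 6 genes with "-ps" symbols that are annotated as protein-coding. This list of exceptions may not be complete.

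BM cells from femurs and tibias of C57BL/6J mice aged 8–10 weeks were grown into bone marrow–derived macrophages (BMDMs) with M-CSF at 100 ng/ml, the growth factor that drives this differentiation and that both groups received. On day 3 the cultures received heme-albumin at 300 μM (heme group) or albumin alone (control group), and cells were lifted on day 7 from dishes that release them on cooling. Stranded libraries from 3 control and 3 Heme-treated cultures were sequenced, and reads per gene were counted. The comparison asks how heme exposure during macrophage differentiation altered the transcripts of both ribosomes. The study took each library from macrophages of a single mouse, and whether control and heme cultures came from the same mice is not stated.

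Ribosomes translate mRNA into protein. The small subunit binds mRNA and decodes it, and the large subunit joins the amino acids. The cytosolic ribosome makes most cellular proteins, and its parts are assembled in the nucleolus on RNA made by RNA polymerase I. The mitochondrial ribosome makes the few proteins encoded by mitochondrial DNA, which are core subunits of the respiratory chain, while all of its own proteins are encoded in the nucleus. Transcripts of cytosolic ribosomal proteins typically start with a cytosine and a run of pyrimidines (a TOP motif), through which growth signals control their translation. Growing and dividing cells make many ribosomes.

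Promoter windows of members that the results turn on, or that show such a start, are given first. They span 30 bases to each side of the transcription start annotated by RefSeq on GRCm38.p6, run 5′ to 3′ on the gene's strand, and carry in capitals the longest run of C and T within 20 bases of the start. The start is the base after the first 30 letters.
Rps6: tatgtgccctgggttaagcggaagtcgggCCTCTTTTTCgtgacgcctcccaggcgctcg
Rps27: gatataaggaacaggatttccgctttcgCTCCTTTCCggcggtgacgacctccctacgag
Rps15a: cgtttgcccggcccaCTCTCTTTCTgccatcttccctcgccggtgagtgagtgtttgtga
Rpsa: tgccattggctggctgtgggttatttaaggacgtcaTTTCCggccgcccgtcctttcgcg
Rpl7a: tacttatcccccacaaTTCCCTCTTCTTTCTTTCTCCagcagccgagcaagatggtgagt
Rpl4: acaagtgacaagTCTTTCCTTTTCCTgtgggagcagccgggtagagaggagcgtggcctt
Rpl22l1: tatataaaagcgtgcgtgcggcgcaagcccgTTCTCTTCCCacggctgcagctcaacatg
Mrpl14: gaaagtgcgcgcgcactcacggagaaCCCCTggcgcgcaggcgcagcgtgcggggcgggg
Mrpl52: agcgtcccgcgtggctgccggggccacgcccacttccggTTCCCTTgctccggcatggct
Mrps18b: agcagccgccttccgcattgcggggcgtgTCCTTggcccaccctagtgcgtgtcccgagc
Mrpl9: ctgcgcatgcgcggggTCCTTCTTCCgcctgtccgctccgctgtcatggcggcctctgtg

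The window of Rps6 lay at chr4:86857338-86857397 on the minus strand, that of Rps27 at chr3:90213619-90213678 on the minus strand and that of Rps15a at chr7:118116118-118116177 on the minus strand. On the plus strand, the window of Rpsa lay at chr9:120127736-120127795, that of Rpl7a at chr2:26910777-26910836, that of Rpl4 at chr9:64173357-64173416 and that of Rpl22l1 at chr3:28805478-28805537. Those of Mrpl14 at chr17:45686319-45686378, Mrpl52 at chr14:54426879-54426938 and Mrpl9 at chr3:94443306-94443365 were also on the plus strand, and that of Mrps18b at chr17:35916411-35916470 was on the minus strand. Rps6, Rps27 and Rps15a began with the strict TOP pattern, a C at the start followed by at least 4 pyrimidines. Rpl7a carried a run of 21 pyrimidines and Rpl4 a run of 14 near the annotated start, but neither had a C at the start itself, and neither met the strict pattern.

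Over all members with a RefSeq promoter (135 of 170 genes, 66 cytosolic and 69 mitochondrial), the strict pattern stood in 14 of 78 cytosolic promoters (17.9%) and in 0 of 75 mitochondrial promoters, against 2.51% of all 32851 promoters. A run of at least 8 pyrimidines within 20 bases of the start was present in 39.7% of cytosolic, 17.3% of mitochondrial and 16% of all promoters. The letters CCGGAAG, which hold the core bound by ETS-family factors, were searched on both strands over the whole promoter of 250 bases before to 50 after the start and overlap the shorter core GGAAG. They were found in 34.6% of cytosolic and 34.7% of mitochondrial promoters, against 17.7% of the promoters of tested genes. CACGTG, the E-box that reads the same on both strands and is bound by MYC and related factors, was found in 10.3% of cytosolic, 9.33% of mitochondrial and 9.95% of the tested genes' promoters. The palindromic NRF1 motif was found in 2.56% of cytosolic, 4% of mitochondrial and 2.12% of the tested genes' promoters. The strict TOP pattern was present in 1 of 7 promoters of cytosolic genes that rose, 3 of 22 of those that fell and 10 of 45 of those that did not pass the test described next.

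Libraries held 27201038 to 32994595 counts. After genes with low counts were removed, 12433 genes were tested for heme against control with edgeR's quasi-likelihood test, and a gene was called at a Benjamini-Hochberg adjusted p under 0.05. Of these, 62.5% were called, 31.7% higher and 30.8% lower, and the 3 libraries of a group did not overlap those of the other in 68.8%. Values per library are CPM, counts scaled to library size and normalized by TMM, which scales libraries so that most genes do not change on balance. TMM factors were 1.07 to 1.097 in control and 0.9178 to 0.931 in heme libraries, and with library sizes alone the median of all genes moved to -0.22 on the log2 scale. Changes are therefore relative to the median gene, and all calls below follow TMM unless library sizes alone are named. Macrophage markers were abundant, with a summed level of 8 genes of 31779 to 37571 CPM in control and 36237 to 39512 CPM in heme libraries. Singly, 6 of these 8 genes were called lower and 1 higher, with a median log2 fold change of -0.60. The 6 lymphoid markers summed to 0.0553 to 0.239 CPM in control and 0.158 to 0.22 CPM in heme libraries, and of these Cd3e was at 0 counts in every library.

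Members that passed the filter on low counts numbered 163 of 170, and of these 39 were called higher and 35 lower. Calls leaned lower for the cytosolic and higher for the mitochondrial ribosome, and this difference was not tested. Among 85 tested cytosolic genes 8 rose (9.41%) and 23 fell (27.1%), with a median log2 fold change of -0.11. Among 78 mitochondrial genes 31 rose (39.7%) and 12 fell (15.4%), with a median of 0.13. Against the 62.5% called among all genes, 36.5% of cytosolic and 55.1% of mitochondrial genes were called. Groups of libraries did not overlap in 39 cytosolic genes (45.9%) and 48 mitochondrial genes (61.5%), both shares below the 68.8% of all genes.

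The distance between the medians of the ribosomes does not depend on how libraries are scaled. The mitochondrial median lay 0.24 above the cytosolic median on the log2 scale, and over the 20 other settings tried the distance ranged from 0.17, without control replicate 2, to 0.28, without control replicate 1. The counts by direction do depend on the scaling. With library sizes alone, 2 cytosolic genes were higher and 64 lower (background 20.8% and 46.8%), and 15 mitochondrial genes were higher and 24 lower. With libraries scaled on the cytosolic ribosomal protein genes themselves, an alternative chosen after seeing the data, 15 cytosolic genes were higher and 11 lower and 32 mitochondrial genes were higher and 6 lower (background 32.9% and 23.2%).

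**Figure D1:**
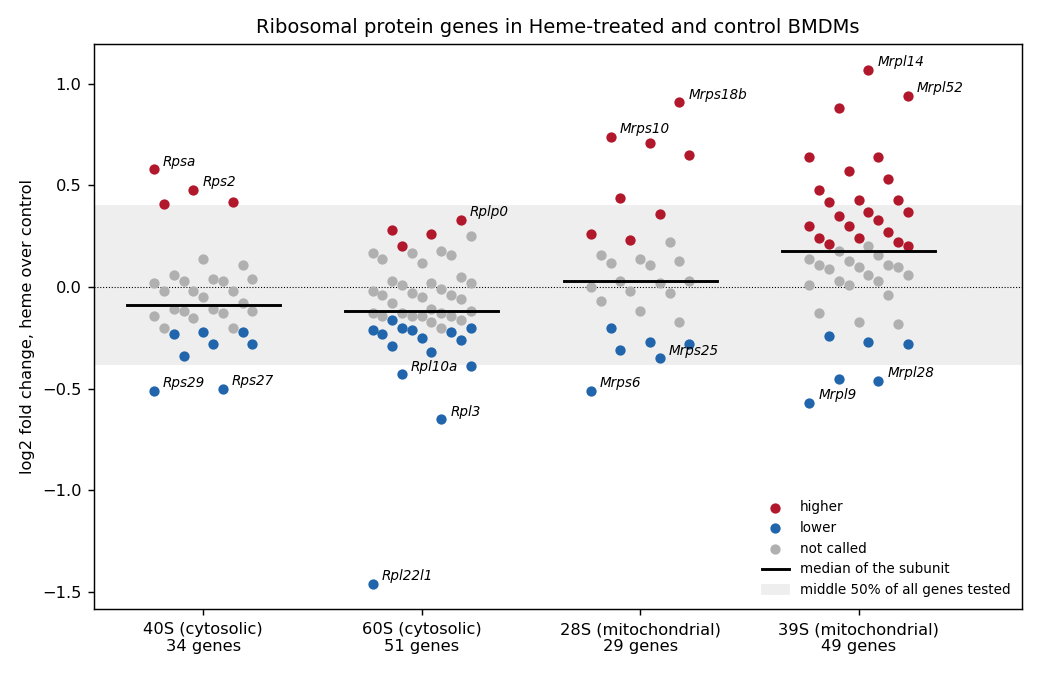
Log2 fold change of heme over control (vertical axis) for each of the 163 tested ribosomal protein genes, as points in 4 columns by subunit and coloured by call, with the median of each subunit as a bar and the middle 50% of all tested genes as a grey band. The medians were -0.09 (40S), -0.12 (60S), 0.03 (28S) and 0.18 (39S), and Rpl22l1 at -1.46 lay below all other members.

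Single libraries moved these counts as well. Leaving out control replicate 2 gave 13 cytosolic genes called higher (15.3%, beside 30.7% of all genes). The cytosolic genes called lower numbered 39 without control replicate 1 (45.9%, beside 31.6% of all genes) and 15 without control replicate 3 (17.6%, beside 27.9%). They numbered 12 without heme replicate 2 (14.1%, beside 27.6%) and 14 without heme replicate 3 (16.5%, beside 25.9%). Without heme replicate 1, 7 mitochondrial genes were called lower (8.97%, beside 26.3%).

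Taken as sums of normalized counts, the cytosolic genes held 25016, 28926 and 26479 CPM in control and 26299, 24852 and 26322 CPM in heme libraries, and the groups overlapped. The mitochondrial genes held 1635, 1643 and 1614 CPM in control and 1795, 1745 and 1823 CPM in heme libraries. Here every heme library lay above every control library. As a share of all counts without any scaling, the cytosolic genes took 2.74%, 3.1% and 2.84% in control and 2.41%, 2.31% and 2.45% in heme libraries. Mitochondrial genes took 0.179%, 0.176% and 0.173% in control and 0.165%, 0.162% and 0.169% in heme libraries, so that on this scale each heme library lay below each control library. In bulk RNA, fewer cells of a type and less RNA per cell cannot be told apart.

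Ratios within a library need no scaling between libraries. For every 100 cytosolic counts there were 6.54, 5.68 and 6.09 mitochondrial counts in control and 6.82, 7.02 and 6.93 in heme libraries. Per 100 counts of 40S genes, 60S genes had 151, 149 and 151 counts in control and 144, 146 and 143 in heme libraries. Per 100 counts of 28S genes, 39S genes had 187, 182 and 178 counts in control and 200, 199 and 196 in heme libraries. In each of these 3 ratios the groups did not overlap. Heme libraries had higher mitochondrial and 39S ratios and a lower 60S ratio. Sums give most weight to abundant genes. The median log2 fold change of 60S genes minus that of 40S genes was only -0.02. Among abundant 40S genes, Rpsa rose from a mean of 591 to 886 CPM and Rps2 from 475 to 662 CPM. Their part in the 60S ratio was not tested.

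**Figure D2:**
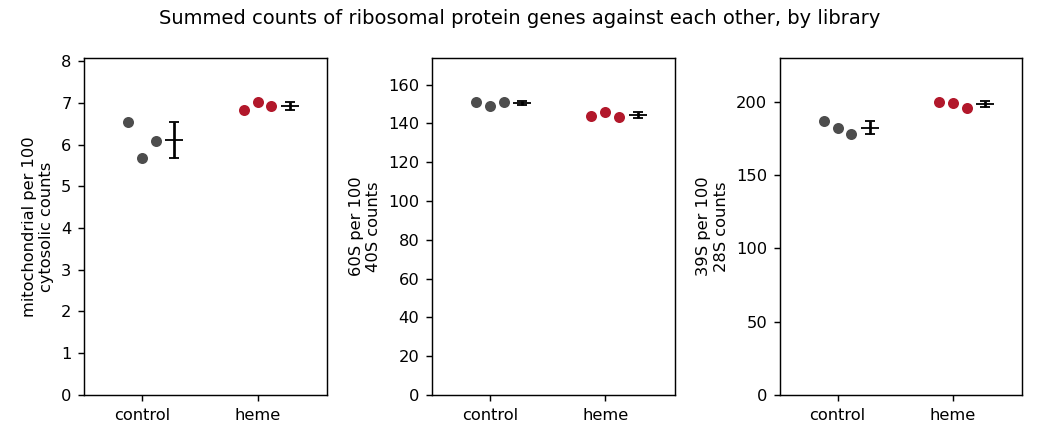
Summed counts of mitochondrial per 100 cytosolic, 60S per 100 40S and 39S per 100 28S genes (vertical axes) in the 3 control (grey) and 3 heme (red) libraries, with the mean and SD beside each group. All 3 heme libraries lay above the controls for the mitochondrial and the 39S ratio (6.82 to 7.02 and 196 to 200) and below them for the 60S ratio (143 to 146).

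Cytosolic transcripts were far more abundant per length of transcript. In control libraries the median level was 155 CPM per kb over the tested cytosolic genes and 8.31 CPM per kb over the mitochondrial genes. Levels per length ranged from 3.31 CPM per kb for Rpl10-ps3 to 921 CPM per kb for Rplp1 in the cytosolic set, and from 1.24 CPM per kb for Mrps35 to 44.5 CPM per kb for Mrps21 in the mitochondrial set.

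In the 40S subunit 4 genes rose (11.8%) and 8 fell (23.5%) of 34 tested, beside 31.7% and 30.8% of all genes. The falls numbered 14 without control replicate 1 (background 31.6%) and 5 without heme replicate 2 or heme replicate 3 (27.6% and 25.9%). Rpsa (chr9:120127689-120132369), whose product sits on the head of the 40S subunit and is also known as a laminin receptor, had 560.5, 621.0 and 591.9 CPM in control and 909.9, 843.7 and 903.5 CPM in heme libraries. It rose by a log2 fold change of 0.58 ± 0.07 (SE; adjusted p = 6.89e-05), and its groups were far apart. Rps2 (chr17:24718116-24721929), a protein near the mRNA entry channel, had 453.0, 483.8 and 487.7 CPM in control and 690.9, 617.8 and 676.9 CPM in heme libraries. It rose by 0.48 ± 0.07 (adjusted p = 0.000262) and, like Rpsa, was called higher under every setting tried. Rps15a rose by 0.42 ± 0.09 (adjusted p = 0.00199), with 217.4 to 266.9 CPM in control and 300.8 to 336.1 CPM in heme libraries. Rps19bp1, matched by name alone, rose by 0.41 ± 0.10 (adjusted p = 0.00565), and with library sizes alone neither it (adjusted p = 0.13) nor Rps15a (adjusted p = 0.0541) was called.

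The genes that fell included both zinc-binding small proteins Rps29 and Rps27. Rps29 (chr12:69157722-69159186), a protein of the 40S head, had 304.7, 333.9 and 313.2 CPM in control and 219.5, 220.5 and 227.5 CPM in heme libraries, a log2 fold change of -0.51 ± 0.06 (adjusted p = 7.3e-05). Rps27 (chr3:90212522-90213651), shown above with its TOP start, had 144.3, 184.8 and 157.2 CPM in control and 115.4, 102.6 and 124.9 CPM in heme libraries, a log2 fold change of -0.50 ± 0.10 (adjusted p = 0.00204). In neither gene did the groups overlap. Rps28 and Rps4x each fell by 0.28 on the log2 scale, and Rps29, Rps27, Rps28 and Rps4x were called lower under every setting tried. Rps19, mutated in Diamond-Blackfan anemia, fell by 0.23 on the log2 scale (adjusted p = 0.0181). This call was lost when libraries were scaled on the cytosolic genes (adjusted p = 0.102 with the scaling). It was also lost with the replicate number as a block in the fit and without heme replicate 2 or heme replicate 3.

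Several other 40S proteins with known roles did not pass the test with TMM, and those named next were called lower with library sizes alone. Rps6, the substrate of the S6 kinases and a strict TOP gene, had 335.0, 382.7 and 379.6 CPM in control and 370.7, 365.0 and 388.8 CPM in heme libraries, and the groups overlapped (log2 fold change 0.04 ± 0.07, adjusted p = 0.687, against -0.19 and 0.0354 with library sizes alone). Rps3, at the mRNA entry, had a log2 fold change of 0.02 (adjusted p = 0.812), and of -0.20 with library sizes alone (adjusted p = 0.037). Rps14 had a log2 fold change of -0.08 (adjusted p = 0.439), and of -0.30 with library sizes alone (adjusted p = 0.0093). Rps27a, which is made as a fusion with ubiquitin, had a log2 fold change of -0.02 (adjusted p = 0.852), and of -0.24 with library sizes alone (adjusted p = 0.0231).

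Among 51 tested 60S genes 4 rose (7.84%) and 15 fell (29.4%), beside 31.7% and 30.8% of all genes. The falls numbered 25 without control replicate 1 (background 31.6%) and 7 without heme replicate 2 (27.6%). They numbered 9 without any 1 of control replicate 2, control replicate 3, heme replicate 1 and heme replicate 3 (29.9%, 27.9%, 26.3% and 25.9%), and without control replicate 2 the rises numbered 8 (30.7%). The stalk, which recruits the GTPases of elongation, is built of RPLP0 with RPLP1 and RPLP2. Rplp0 (chr5:115559467-115563727) had 729.3, 794.1 and 762.4 CPM in control and 986.3, 932.8 and 959.9 CPM in heme libraries and rose by 0.33 ± 0.07 (adjusted p = 0.00181). Rplp1 rose by 0.20 ± 0.07 (adjusted p = 0.0373) from a mean of 460 ± 27.1 to 529 ± 32.0 CPM (SD, n = 3 each), a call lost under 10 of the 20 other settings, library sizes alone among them (log2 fold change -0.02). Rplp2 had 260.3 to 294.2 CPM in control and 271.2 to 281.0 CPM in heme libraries and did not pass the test (adjusted p = 0.84), although it was called lower with library sizes alone (adjusted p = 0.0183).

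Rpl4 (chr9:64173375-64178666), which lines the exit tunnel of the nascent chain, had 648.6, 723.0 and 669.1 CPM in control and 825.4, 791.2 and 826.9 CPM in heme libraries and rose by 0.26 ± 0.07 (adjusted p = 0.00832). The heme libraries all lay above the controls. The rises of Rplp0 (adjusted p = 0.148), Rpl4 (adjusted p = 0.62) and Rpl36al (adjusted p = 0.44) were not called with library sizes alone.

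Rpl22l1 (chr3:28805436-28807424), a paralog of the RNA-binding protein RPL22, had the largest fall among the tested members. It had 30.84, 35.90 and 30.91 CPM in control and 11.35, 11.77 and 12.44 CPM in heme libraries, a log2 fold change of -1.46 ± 0.09 (adjusted p = 7.38e-07). The groups lay far apart and the call held under every setting tried. Rpl3 (chr15:80077791-80091868), next to the peptidyl transferase centre, had 487.8, 542.0 and 514.8 CPM in control and 315.5, 338.4 and 331.9 CPM in heme libraries, a log2 fold change of -0.65 ± 0.07 (adjusted p = 2.6e-05).

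Rpl10a, which forms the mobile stalk beside the exit site of tRNA, had 251.4, 286.8 and 277.0 CPM in control and 198.2, 207.0 and 201.5 CPM in heme libraries (log2 fold change -0.43 ± 0.07, adjusted p = 0.000419). Rpl7a, with the long pyrimidine run shown above, had 528.3, 623.7 and 602.5 CPM in control and 446.0, 442.5 and 445.9 CPM in heme libraries (log2 fold change -0.39 ± 0.07, adjusted p = 0.00131). Neither pair of groups overlapped. With Rpl35a and Rpl37a, which fell by 0.32 and 0.29 on the log2 scale, Rpl22l1, Rpl3, Rpl10a and Rpl7a were called lower under every setting tried.

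RPL5 and RPL11 form the 5S ribonucleoprotein, which can also bind MDM2 and so restrain its action on p53. Rpl5 had 425.2 to 504.9 CPM in control and 409.2 to 425.5 CPM in heme libraries and did not pass the test (adjusted p = 0.175), although it was called lower with library sizes alone (adjusted p = 0.00214). Rpl11 fell by 0.22 on the log2 scale (adjusted p = 0.0173), a call lost when libraries were scaled on the cytosolic genes and without heme replicate 2 or heme replicate 3 (adjusted p = 0.128 with the scaling). Rpl13a, known for a role outside the ribosome in interferon-γ responses of myeloid cells, fell by 0.25 on the log2 scale (adjusted p = 0.0129). Its counts share exons with Gm45713 on the same strand over 29.4% of its exon length, and its call was lost without heme replicate 2 and with the scaling on cytosolic genes (adjusted p = 0.0591 with the scaling). Rpl23 (adjusted p = 0.151) and Rpl26 (adjusted p = 0.445), both also bound up with MDM2 and p53, did not pass the test with TMM and were called lower with library sizes alone (adjusted p = 0.00219 and 0.0118).

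**Figure D3:**
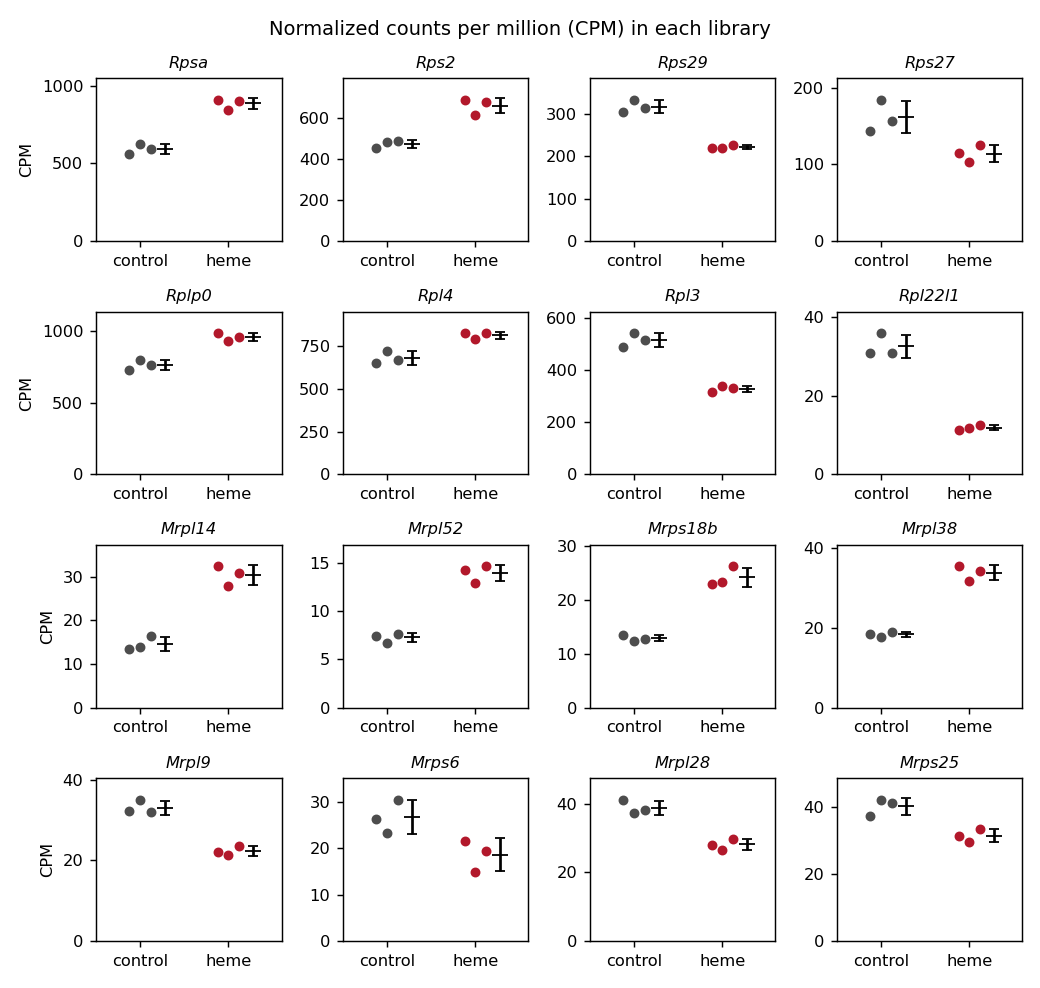
Normalized CPM (vertical axes, each starting at 0) of 16 ribosomal protein genes in the 3 control (grey) and 3 heme (red) libraries, with the mean and SD beside each group. The genes shown were chosen from members called higher or lower, a choice that favours separate groups, and the groups did not overlap in any panel. Among tested members groups did not overlap in 53.4%, and among all tested genes in 68.8%. Mrps6 had the widest spread relative to its level (23.33 to 30.55 CPM in control and 14.81 to 21.69 CPM in heme libraries).

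In the mitochondrial large subunit 23 genes rose (46.9%) and 6 fell (12.2%) of 49 tested, beside 31.7% and 30.8% of all genes. The falls numbered 3 without control replicate 3 or heme replicate 1 (background 27.9% and 26.3%). Mrpl14 (chr17:45686322-45698495), on the face of the 39S subunit that meets the 28S subunit, had 13.48, 13.85 and 16.36 CPM in control and 32.43, 27.93 and 30.96 CPM in heme libraries. It rose by 1.07 ± 0.10 (adjusted p = 1.13e-05), the largest rise among the tested members. Mrpl14 shares 11.2% of its exon length with Tmem63b on the opposite strand, which had 252 counts per 100 of Mrpl14 in control libraries and a log2 fold change of 0.80. The setting for strand is not given in the sources used here, and without strand, reads from a gene and its antisense partner cannot be told apart. Tlcd1, opposite 59.7% of the exon length of Rpl23a, had 68.6 counts per 100 in control libraries (log2 fold change -0.26, beside -0.21 for Rpl23a). Rab6a, opposite 8.68% of Mrpl48, moved apart from it (0.69, beside 0.10). Whether reads were counted for both genes was not tested.

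Mrpl52 (chr14:54426909-54429756) had 7.432, 6.714 and 7.675 CPM in control and 14.24, 12.96 and 14.64 CPM in heme libraries and rose by 0.94 ± 0.10 (adjusted p = 3.58e-05). Mrpl38 (chr11:116131817-116138868), of the central protuberance, had 18.40, 17.75 and 18.93 CPM in control and 35.32, 31.64 and 34.04 CPM in heme libraries and rose by 0.88 ± 0.07 (adjusted p = 6.14e-06). The heme libraries of both genes lay well above the controls. Mrpl33 and Mrpl55 each rose by 0.64 (adjusted p = 0.000292 and 0.000462), and 11 of the 23 rises of the 39S subunit held under every setting tried.

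Mrpl12 forms the mitochondrial counterpart of the stalk and also binds the mitochondrial RNA polymerase. It had 34.40, 30.47 and 30.95 CPM in control and 40.98, 40.45 and 40.46 CPM in heme libraries and rose by 0.35 ± 0.07 (adjusted p = 0.00179), a call lost with library sizes alone (adjusted p = 0.165). Mrpl44, which has an RNase III fold, rose by 0.27 (adjusted p = 0.0233), a call lost under 6 of the other settings, among them library sizes alone and leaving out control replicate 3 or heme replicate 1. Mrpl11 of the stalk base (adjusted p = 0.69), Mrpl37 (adjusted p = 0.741) and the peptidyl-tRNA hydrolase Mrpl58 (adjusted p = 0.961) did not pass the test with TMM. With library sizes alone these 3 genes were called lower (adjusted p = 0.011, 0.0263 and 0.0476).

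Of the 39S genes that fell, Mrpl9 (chr3:94443318-94451130) had 32.16, 35.06 and 31.92 CPM in control and 22.09, 21.21 and 23.66 CPM in heme libraries (log2 fold change -0.57 ± 0.08, adjusted p = 0.000134). Mrpl28 had 41.22, 37.33 and 38.13 CPM in control and 28.05, 26.62 and 29.86 CPM in heme libraries (log2 fold change -0.46 ± 0.07, adjusted p = 0.000422). Mrpl18, whose product holds the RNA that takes the place of 5S rRNA, had 29.04, 25.51 and 23.91 CPM in control and 18.76, 18.96 and 19.77 CPM in heme libraries (log2 fold change -0.45 ± 0.09, adjusted p = 0.00151). In these 3 genes no heme library reached a control library, and the calls held under every setting tried. Mrpl9 shares 5.81% of its exon length with Oaz3 on the opposite strand, which had a log2 fold change of -0.52.

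In the mitochondrial small subunit 8 genes rose (27.6%) and 6 fell (20.7%) of 29 tested, both below the 31.7% and 30.8% of all genes. Without heme replicate 3 the falls numbered 3 (background 25.9%). Mrps18b (chr17:35910379-35916389), a member of a trio of related proteins, had 13.43, 12.41 and 12.81 CPM in control and 22.93, 23.34 and 26.23 CPM in heme libraries and rose by 0.91 ± 0.08 (adjusted p = 1.29e-05). Mrps10 had 15.36, 13.28 and 13.79 CPM in control and 22.93, 24.29 and 23.62 CPM in heme libraries and rose by 0.74 ± 0.08 (adjusted p = 4.41e-05). Both genes had groups well apart. Mrps22 rose by 0.71 (adjusted p = 0.000173), Mrps28 by 0.65 (adjusted p = 0.00282) and the pentatricopeptide repeat protein gene Mrps27 by 0.44 (adjusted p = 0.00243), the last not called with library sizes alone (adjusted p = 0.0761).

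Mrps6 had 26.39, 23.33 and 30.55 CPM in control and 21.69, 14.81 and 19.55 CPM in heme libraries (log2 fold change -0.51 ± 0.14, adjusted p = 0.0109). Its groups were close but did not overlap, and 10.4% of its exon length is shared with Slc5a3 on the same strand, which had a log2 fold change of -1.49. Mrps25 had 37.30, 42.19 and 41.10 CPM in control and 31.35, 29.63 and 33.45 CPM in heme libraries (log2 fold change -0.35 ± 0.08, adjusted p = 0.00288). Over 69.8% of its exon length it faces Nr2c2 on the opposite strand, which had a log2 fold change of -0.57. Mrps12, of the decoding centre, fell by 0.27 on the log2 scale (adjusted p = 0.0154), a call lost without heme replicate 3 and with the scaling on cytosolic genes (adjusted p = 0.0981 with the scaling). Mrps2 (adjusted p = 0.0856), the mitochondrial relative of Rpsa, Mrps35 (adjusted p = 0.383) and Mrps36 (adjusted p = 0.32) did not pass the test, and of these Mrps35 was called lower with library sizes alone (adjusted p = 0.0209). In all, 41 members, 16 cytosolic and 25 mitochondrial, share exon bases with another counted gene.

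Some ribosomal proteins have close relatives, and in a few cases, such as RPL22 and RPL22L1, a paralog can take the place of the other in the ribosome. Others work side by side, such as RPLP1 and RPLP2, or belong to different ribosomes. The share of 1 partner in the pair's counts per kb was compared for 11 pairs with an exact two-sided permutation test, whose smallest p with 3 libraries against 3 is 0.1, so that no pair can pass 0.05. Rpl22l1 made up 30%, 29.1% and 29.4% of the Rpl22 pair in control and 12.4%, 13.5% and 13% in heme libraries, a difference of -16.5 percentage points (p = 0.1 by the exact permutation test, 0.157 adjusted over the pairs). Rpl22 itself had 105.4, 128.2 and 108.8 CPM in control and 116.8, 110.8 and 122.3 CPM in heme libraries and did not pass the test (adjusted p = 0.758). Rpl22l1 alone of this pair passed the test across all genes.

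In the Rps27 pair the share of Rps27l, a known p53 target, was 27.6%, 23% and 25% in control and 31.5%, 34.1% and 32.4% in heme libraries (p = 0.1 by the exact permutation test). Rps27l itself had 40.91 to 43.18 CPM in control and 41.48 to 46.88 CPM in heme libraries (adjusted p = 0.725, and 0.0433 with a log2 fold change of -0.19 with library sizes alone), while Rps27 fell. Rpl36al went from 41.5% ± 1.48 to 46.4% ± 1.67 (SD, n = 3 each) of the Rpl36a pair, again with p = 0.1 by the exact permutation test. Reads of Rps27, Rps27l and the retrogene Rps27rt, and of Rpl36a and Rpl36al, may be split between near-identical copies.

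In the mitochondrial trio, Mrps18b made up 42.4%, 40% and 40.7% of its pair with Mrps18a in control and 51.7%, 55.6% and 56.7% in heme libraries. Its share of the pair with Mrps18c was 27.2% ± 1.42 in control and 37.4% ± 0.903 in heme libraries (SD, n = 3 each). Neither comparison had overlapping groups, and both had p = 0.1 by the exact permutation test. Mrps18a did not pass the test (adjusted p = 0.183), and the rise of Mrps18c by 0.23 (adjusted p = 0.0431) was lost under 13 of the 20 other settings. The share of Rpl7l1 in the Rpl7 pair, 12.4% ± 1.5 in control and 11.7% ± 0.46 in heme libraries (SD, n = 3 each), had overlapping groups (p = 0.6 by the exact permutation test).

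**Figure D4:**
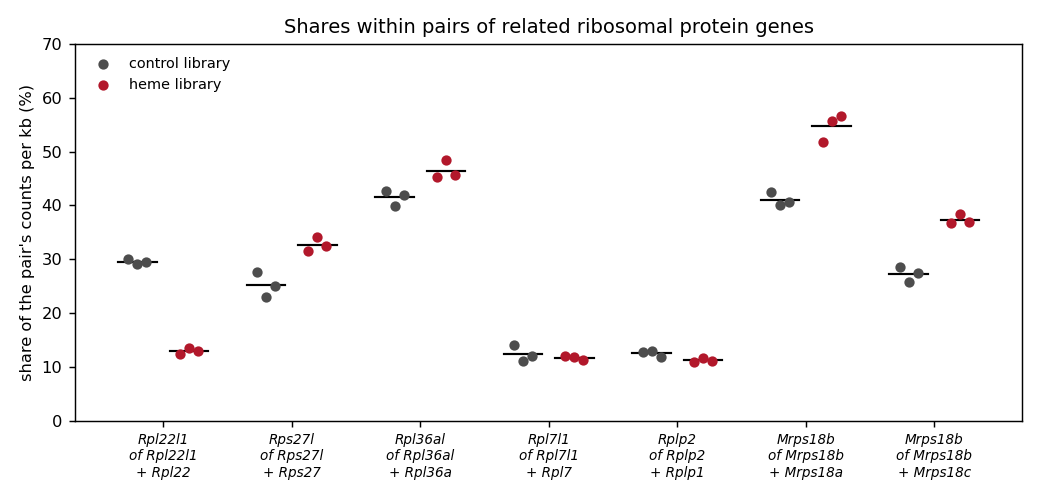
Share of the first-named gene in the counts per kb of 7 pairs of related genes (vertical axis, percent) in the 3 control (grey) and 3 heme (red) libraries, with group means as bars. Rpl22l1 fell from about 29.5% to 13% of its pair, and Mrps18b went from 41% to 54.6% and from 27.2% to 37.4% of its pairs.

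Members outside the tested set were paralogs and copies with hardly any counts. Rpl10l, Rpl9-ps1 and Rpl36-ps4 had 0 counts in every library, and 3 counts, the most that such a 0 allows, are 0.11 CPM in the smallest library. Rpl3l, Rpl39l, Rpl36a-ps1 and Rps12-ps3 had 21, 35, 27 and 29 counts over the 6 libraries. These bounds cover counting error only.

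Ribosomal proteins that the name rule misses were listed apart. Of those of the cytosolic ribosome, Fau fell by 0.30 on the log2 scale (adjusted p = 0.00448) and Rack1 did not pass the test with TMM. Of 5 mitochondrial proteins with other names 4 rose, beside 31.7% of all genes, with a median of 0.26. With library sizes alone 1 was higher (background 20.8%). The rises were led by the pentatricopeptide protein gene Ptcd3 with 0.67 (adjusted p = 0.000576) and the apoptosis-linked Dap3 with 0.34 (adjusted p = 0.00279).

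Genes that build cytosolic ribosomes were mostly called higher. Of 123 tested ribosome biogenesis genes 91 rose (74%) and 9 fell, with a median log2 fold change of 0.43, beside 31.7% and 30.8% of all genes and 9.41% and 27.1% of the cytosolic ribosomal proteins. Their summed level was 4253 to 4595 CPM in control and 5836 to 5881 CPM in heme libraries. Wdr75, of the complex that processes the small-subunit rRNA, rose by 1.26 ± 0.12 (adjusted p = 1.64e-05), Nop16 by 1.17 ± 0.15 (adjusted p = 9.35e-05) and Mdn1, an AAA ATPase that remodels pre-60S particles, by 1.06 ± 0.14 (adjusted p = 0.00015). Imp3, which pairs the U3 RNA with its target, fell by 0.67 on the log2 scale (adjusted p = 0.00023). With library sizes alone 61 biogenesis genes were higher and 18 lower (background 20.8% and 46.8%).

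Of 19 genes of RNA polymerase I and its factors 10 rose and 1 fell, with a median of 0.26, beside 31.7% and 30.8% of all genes. With library sizes alone 3 were higher and 5 lower, with a median of 0.04 (background 20.8% and 46.8%). Polr1a, the largest subunit, had a mean of 22.7 ± 3.21 CPM in control and 44.1 ± 2.01 CPM in heme libraries (SD, n = 3 each), a log2 fold change of 0.96 (adjusted p = 2.97e-05). Polr1c, shared with RNA polymerase III, fell by 0.32 on the log2 scale (adjusted p = 0.0143).

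Translation factors were mixed by class. Of 36 cytosolic initiation factors and their inhibitors 20 rose (55.6%) and 2 fell, beside 31.7% and 30.8% of all genes. With library sizes alone 12 were higher and 9 lower (background 20.8% and 46.8%). The translational repressor gene Eif4ebp1 rose by 1.55 ± 0.07 (adjusted p = 1.71e-07), while its relative Eif4ebp2 fell by 1.09 on the log2 scale (adjusted p = 6e-06). Eif5a rose by 0.84 (adjusted p = 4.71e-05). Among 19 other TOP mRNAs, which share their start with the cytosolic ribosomal proteins, 2 rose (10.5%) and 4 fell, with a median of -0.04. All genes gave 31.7% and 30.8%. With library sizes alone 1 of these mRNAs was higher and 12 lower (background 20.8% and 46.8%). Eef1g, of the elongation factor 1 complex, rose by 0.60 (adjusted p = 7.11e-05), and Eif4b fell by 0.42 on the log2 scale (adjusted p = 0.0012).

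On the mitochondrial side, 8 of 30 assembly factors rose (26.7%) and 6 fell (median 0.08), beside 31.7% and 30.8% of all genes. With library sizes alone 3 were higher and 12 lower (background 20.8% and 46.8%). Ndufab1, the acyl carrier protein, rose by 0.50 (adjusted p = 0.000516) and Eral1, a chaperone of the small-subunit rRNA, fell by 0.70 on the log2 scale (adjusted p = 0.000425). Of 15 mitochondrial translation factors 6 rose (40%) and 1 fell (median 0.18), beside 31.7% and 30.8% of all genes. With library sizes alone 1 was higher and 3 lower (background 20.8% and 46.8%). The elongation factor gene Gfm1 rose by 0.68 ± 0.06 (adjusted p = 8.36e-06), whereas Gfm2, which acts in recycling, fell by 0.46 on the log2 scale (adjusted p = 0.000234). Of 13 genes of mitochondrial transcription and its regulators 2 rose (15.4%) and 3 fell, beside 31.7% and 30.8% of all genes. With library sizes alone none was higher and 5 were lower (background 20.8% and 46.8%). With TMM the 3 that fell were Gabpb2 (-0.77, adjusted p = 1.66e-05), Gabpa (-0.36, adjusted p = 0.00103) and Nrf1 (-0.33, adjusted p = 0.00559). They encode factors known to act on promoters of mitochondrial ribosomal protein genes. The 2 that rose were Pprc1 and Tfb2m, by at most 0.48, and the median of the list was 0.15.

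**Figure D5:**
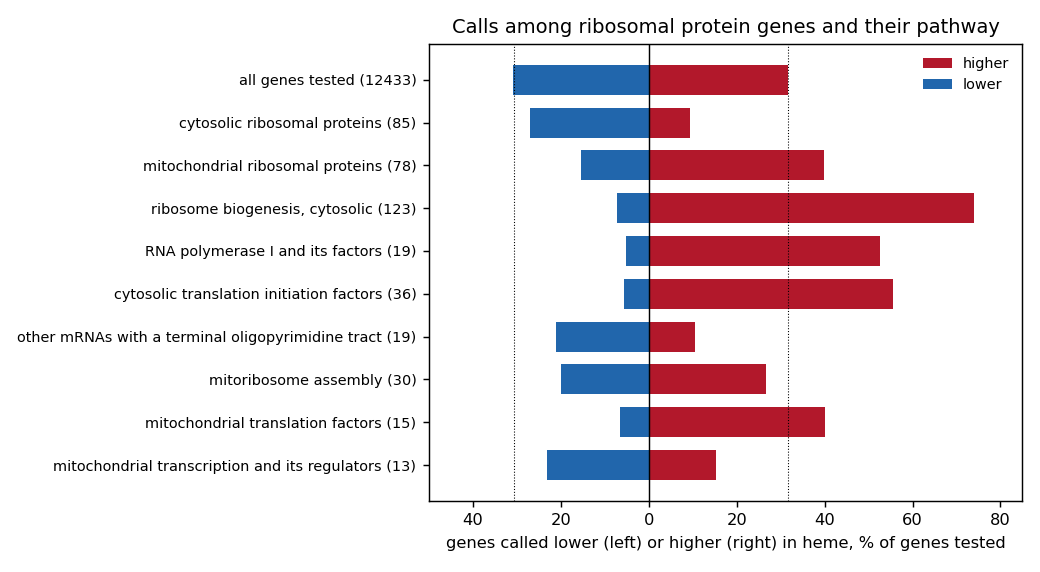
Genes called higher (red, to the right) or lower (blue, to the left) in heme libraries as a percentage of the genes tested in each list (number tested in parentheses), with dotted lines at the shares of all genes (31.7% and 30.8%). Ribosome biogenesis genes were higher in 74%, cytosolic ribosomal proteins in 9.41% and mitochondrial ribosomal proteins in 39.7%.

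Regulators of ribosome production gave 7 rises (28%) and 9 falls among 25 tested genes, beside 31.7% and 30.8% of all genes. With library sizes alone they gave 3 and 13 (background 20.8% and 46.8%). Myc, which drives ribosome production, had 23.35, 6.684 and 9.388 CPM in control and 42.63, 47.16 and 42.84 CPM in heme libraries and rose by 1.74 ± 0.36 (adjusted p = 0.00207). Its control libraries were spread widely, and all lay below the heme libraries. Of the antagonists of MYC, Mxd4 fell by 0.88 (adjusted p = 0.000164) and Mxd1 by 0.76 on the log2 scale (adjusted p = 0.000812). Larp1, which binds TOP mRNAs, rose by 0.41 (adjusted p = 0.00433), and Rheb, the activator of mTOR, rose by 0.58 (adjusted p = 8.39e-05).

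In the list of p53, its regulators and its targets, which holds neither Rpl5 nor Rpl11, 2 of 11 genes rose (18.2%) and 6 fell, beside 31.7% and 30.8% of all genes. With library sizes alone 2 were higher and 7 lower (background 20.8% and 46.8%). Mdm2 rose by 1.01 ± 0.06 (adjusted p = 6.29e-07) from 116 ± 1.65 to 233 ± 10.0 CPM (SD, n = 3 each). Sesn2 rose by 1.13 (adjusted p = 1.43e-06) and Sesn1 fell by 2.64 on the log2 scale (adjusted p = 1.45e-07). Among 18 genes of ribosome rescue, storage and turnover 7 rose (38.9%) and 2 fell, beside 31.7% and 30.8% of all genes. With library sizes alone 3 were higher and 6 lower (background 20.8% and 46.8%). Pelo, which frees stalled ribosomes, rose by 0.84 (adjusted p = 9.47e-05).

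Markers of other cells and of division moved in the same libraries. Of 10 neutrophil markers 7 were tested, and all 7 were called higher, beside 31.7% of all genes. A marker scarce in control can pass the filter on low counts through the heme libraries alone. The direction of its call is then fixed, so that such counts are no test. The summed level of the neutrophil markers was 6.99 to 11.2 CPM in control and 90 to 133 CPM in heme libraries. Progenitor markers summed to 3.28 to 3.87 CPM in control and 14.2 to 21.9 CPM in heme libraries. Of these, 5 of 7 tested genes were called higher, beside 31.7% of all genes, with the same limit of the filter. Erythroid markers summed to 0.884 to 1.19 CPM in control and 1.14 to 1.65 CPM in heme libraries, and 2 of 8 were tested. Hbb-bt had 0 counts in every control and 0.6715 to 1.212 CPM in heme libraries. It passed the filter through the heme libraries alone, which fixed its direction. Epor had 0.5526 to 0.795 CPM in control and 0.03668 to 0.1975 CPM in heme libraries, a log2 fold change of -2.64. Epor passed the filter through the control libraries alone, which likewise fixed its direction. Hba-a2 was at 0 in all libraries. Cell cycle genes summed to 1356 to 2199 CPM in control and 944 to 1150 CPM in heme libraries. Of 24 genes 17 fell and 1, Pcna, rose, beside 30.8% and 31.7% of all genes. With library sizes alone 1 was higher and 21 were lower (background 20.8% and 46.8%). Beside 31.7% of all genes called higher and 30.8% lower, macrophage markers gave 1 rise and 6 falls among 8 genes. The part of these shifts in the values of the ribosomal protein genes was not tested.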

How the data were processed

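Total RNA of 3 control and 3 Heme-treated BMDM cultures had an RNA integrity number above 9, per the labels. The deposited files hold raw read counts per gene for each library. Per the authors and their processing notes, reads were aligned with STAR 2.7.0 to GRCm38.p5 and counted with featureCounts. Neither the strand setting of the counting nor its annotation release is given in the sources used here. Identifiers were matched to symbols of GENCODE M21, and 36 of 25700 had none (0.0481% of counts).

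Counts were tested with edgeR 4.0.16 in R 4.3.3 (filterByExpr with a minimum count of 10, TMM, quasi-likelihood test, group as the only term), with Benjamini-Hochberg adjustment over the 12433 genes tested. The biological coefficient of variation was 0.0919. The fit was also run on simulated counts in which 200 of the 12433 genes changed, evenly up and down. In the real data 62.5% of genes were called, so the simulation could not check the TMM scaling under changes this wide. Per-kb levels divide CPM by exon length. No 2 libraries were identical. Replicates of a group came from separate mice according to the study.

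Members and gene lists were chosen with earlier results of these data known. Genes named were, in each subunit, the 5 called members that rose most and the 5 that fell most, genes with roles listed beforehand, genes of paralog pairs, members without enough counts, and up to 4 genes per direction in each pathway list. Rpl37a, Rpl10-ps3, Rpl23a, Mrpl48, Mrps21, Rack1, genes overlapping members and markers at 0 were named in addition, after their values were seen. Alternatives were other scalings, filters, offsets for GC content and length, limma-voom (limma 3.58.1), DESeq2 1.42.0, a replicate block and leaving out each library.

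Some lists share genes. Promoters came from a RefSeq table on GRCm38.p6. Rps4l and the mitochondrial rRNAs were not analysed here, and some results are not reported here.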

Additional observations from a re-analysis of the deposited data

How the results depend on the processing

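Setting by setting, direction and call of most results held, and scaling moved the counts most. Fewer calls of single members held under every setting. These were 2 of 8 rises and 11 of 23 falls of cytosolic genes, and 15 of 31 rises and 5 of 12 falls of mitochondrial genes. Over the fits that each left out a library, 7 rises and 12 falls of cytosolic genes held. For mitochondrial genes 23 rises and 5 falls did. With library sizes alone, 2580 genes were called higher and 5814 lower, cytosolic genes 2 and 64 (median -0.33), mitochondrial genes 15 and 24 (median -0.09), and the 315 other pathway genes 89 and 93 (median 0.02). The medians of the 28S (-0.19) and 39S genes (-0.04), mitoribosome assembly (-0.15), mitochondrial translation factors (-0.04), mitochondrial transcription (-0.07) and ribosome rescue (-0.09) turned negative. Log2 ratios of summed levels became -0.28 (cytosolic), -0.09 (mitochondrial), -0.24 (40S), -0.30 (60S), -0.17 (28S) and -0.05 (39S), and Mrpl37 (-0.20), Mrpl58 (-0.22), Rplp1 (-0.02), Rplp2 (-0.20), Rps27l (-0.19), Rps3 (-0.20) and Rps6 (-0.19) changed sign and were called lower or, for Rplp1, lost the call. Mrps2 (-0.06), Mrps18a (-0.11), Mrps36 (-0.11) and Rpl22 (-0.19) also changed sign, without a call under either scaling. By construction this setting moves all genes together, by -0.22 at the median.

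Scaled on the cytosolic ribosomal protein genes, 15 cytosolic genes were called higher and 11 lower, 6 mitochondrial genes lower (median 0.21) and 23 other pathway genes lower (median 0.32). Of all genes 32.9% were then called higher and 23.2% lower. The medians of the other TOP mRNAs (0.04) and of growth control (0.05) turned positive. Scaled on the mitochondrial ones, 5 cytosolic genes were called higher and 46 lower (5.88% and 54.1%, median -0.24). All genes shifted too, with 24.9% called higher and 39.4% lower (median -0.12). The mitochondrial median was 0.01, and 74 other pathway genes were called lower (median 0.12). The medians of the 28S genes (-0.10) and of mitoribosome assembly (-0.05) turned negative. Without the 20 most abundant genes in library sizes, the medians were 0.07 (mitochondrial), 0.18 (other pathway genes) and -0.03 (28S). These 3 scalings were chosen after seeing the data. Upper quartile scaling gave a mitochondrial median of 0.11.

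Residuals of same-numbered libraries had correlations of -0.0998, -0.142 and -0.0683. These values cannot show whether same-numbered cultures came from the same mice, since a small effect of the mouse would also leave them near 0. With the replicate number as a block, 14 cytosolic genes were called lower and 7 higher, and 25 mitochondrial genes higher and 9 lower. In that fit 29.5% of all genes were called higher and 28.1% lower. Leaving out each library gave 7 to 13 cytosolic genes called higher and 12 to 39 lower, and 24 to 30 mitochondrial genes called higher and 7 to 13 lower. In these fits 27.5% to 32.4% of all genes were called higher and 25.9% to 31.6% lower. Mitochondrial medians were 0.11 to 0.17 and other pathway medians 0.21 to 0.29. The distance between the 39S and 28S medians was 0.15, and 0.01 without control replicate 3. The median of the other TOP mRNAs ranged from -0.08 without control replicate 1 to 0.03 without control replicate 2.

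As shares of raw counts, without division by length, the differences in percentage points were -13 (Rpl22l1), -2.93 (Rplp2), 11.7 (Mrps18b with Mrps18c), 0.0384 (Rpl3l), 0.296 (Rps27rt) and -0.625 (Rplp1 with Mrpl12). Depth was sufficient for 163 of 170 members. In all but 1 of the alternatives tried the mitochondrial median stayed above 0. The cause of the other differences was not tested.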
